A study of Mus musculus with 8 samples.

Results

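Integrins are the receptors by which cells hold on to the matrix around them, and laminins are among the matrix proteins they bind. Every integrin pairs an alpha with a beta subunit, and the pair sets the ligand: fibronectin and other proteins with an RGD motif, collagen, laminin, or counter-receptors on other cells. Every laminin joins an alpha, a beta and a gamma chain, and laminins build the basement membrane that surrounds fat cells, muscle fibres and vessels. The genes described here are those whose symbol in the probe annotation names an integrin alpha or beta subunit or a laminin chain, chosen by name and not by their values. There were 34 of them, 24 integrin and 10 laminin genes, among 19505 named genes, and each had 1 probe set. Itga1 and Itga10 were not analysed here.

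They were measured in mesenchymal stromal cells from the inguinal fat pad of male FVB mice aged 12 months, infected with the lentiviral vector pLKO.1. The vector carried a hairpin against Irf7 (shIRF7, 4 arrays), a scrambled hairpin (scramble, 2 arrays) or no insert (empty vector, 2 arrays), so all groups carried the vector. Irf7 encodes a transcription factor of the type I interferon response, and the study asked how it bears on ageing in such stromal cells. The labels do not say whether replicates are separate cultures, infections or animals, so the spread behind each p-value is that between arrays and could be technical only.

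Values are log2 intensities, and a gene was called above background on an array where it exceeded the 95th percentile of that array's negative control probe sets, which lay between 7.93 and 8.72. Arrays with the same replicate number had similar negative control medians in all groups: 4.18 in shIRF7, 4.26 in scramble and 4.21 in empty vector for replicate 1, and 4.56, 4.56 and 4.55 for replicate 2. Medians in shIRF7 replicates 3 and 4 were 4.54 and 4.33. Differences within replicate 1 and within replicate 2 are therefore given beside those over all arrays. Irf7 itself measured 4.42, 5.66, 6.47 and 6.79 in shIRF7 replicates 1 to 4, against 9.56 and 9.76 in scramble and 9.55 and 9.61 in empty vector. It was not above background on any shIRF7 array, and lay at least 2.34-fold lower there (adjusted p = 0.0692 in limma, two-sided exact permutation p = 0.0286, the smallest that 4 against 4 arrays allow). Of 14 measured mesenchymal stromal markers, 10 were above background on all arrays, among them Pdgfrb and Prrx1, while the surface markers Thy1 and Nt5e were not above it on every array of any group. Above background on every array of a group were 0 of 13 leukocyte, 0 of 8 endothelial, 0 of 4 platelet, 0 of 4 Schwann cell and 0 of 10 epithelial or mesothelial markers. Above it were 3 of 8 adipocyte markers (Lpl, Pparg and Fabp4, but not Adipoq or Plin1) and 1 of 9 pericyte and smooth muscle markers (Acta2, but not Myh11 or Des).

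A limited set of subunits was above background. On all 8 arrays 10 of the 34 genes were above background: Itga5, Itga11, Itgav, Itgb1, Itgb5, Itgb7, Lama4, Lamb1, Lamb2 and Lamc1. Itgb3 was above background on every shIRF7 array and Itga6 on every control array, while Itga3 and Itga9 passed that level on 2 and 1 control arrays only. The other 20 were above background on no array. Since Itgb1 was present with Itga5, Itga11, Itgav and Itga6, and Itgav with Itgb3 and Itgb5, the arrays held transcripts of receptors for fibronectin, fibrillar collagen, laminin and vitronectin. For the laminins, transcripts of the alpha 4, beta 1, beta 2 and gamma 1 chains were present.

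**Figure D1:**
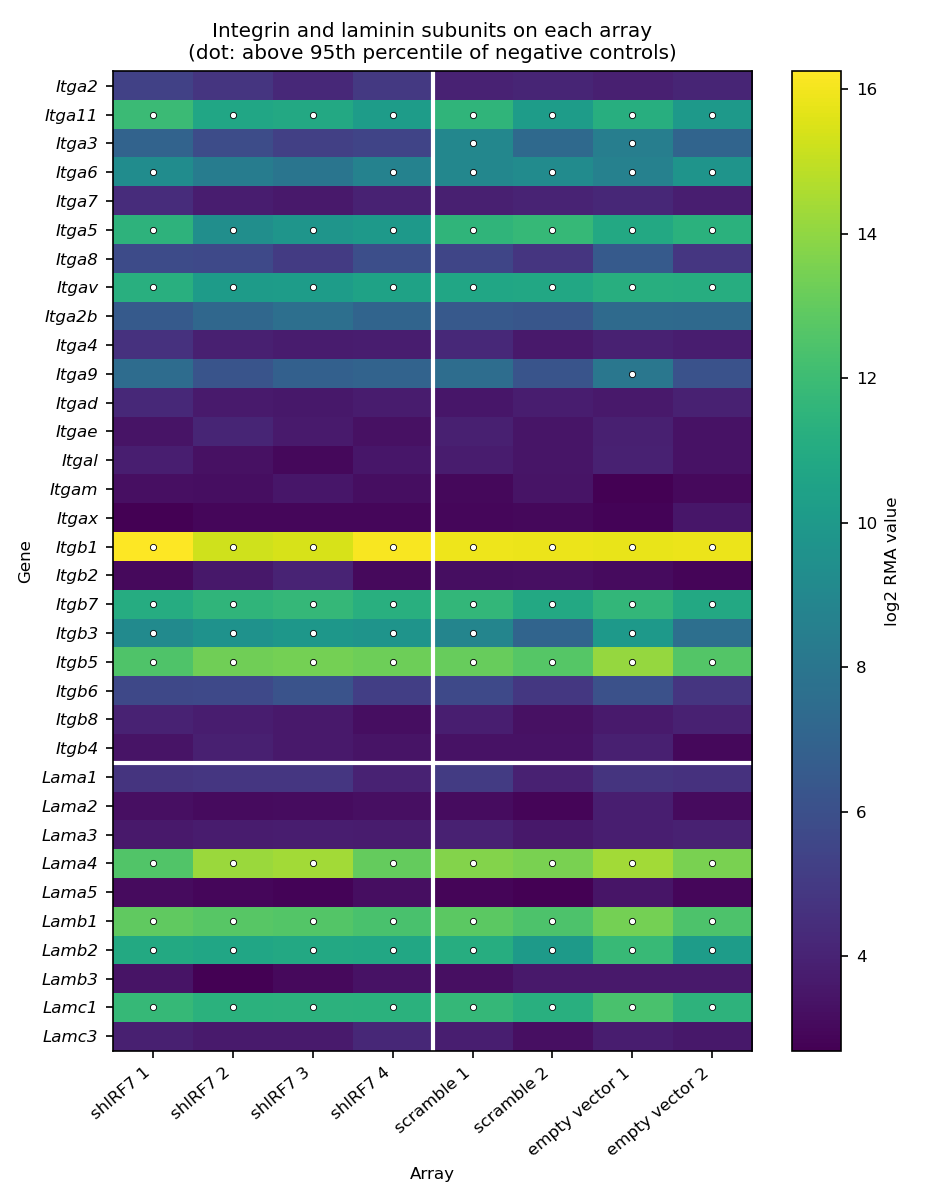
Each row is an integrin or laminin gene, grouped by role, each column an array with shIRF7 on the left, and colour is the log2 value. A white dot marks a value above the 95th percentile of the negative controls of that array, and 10 genes carry a dot on all 8 arrays.

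No subunit passed the test in any comparison. In shIRF7 against the mean of both controls 0 of 34 genes had an adjusted p under 0.05 in limma, where 0.0308% of all 19505 genes did. Without adjustment 3 of 34 had a limma p under 0.05, where 8.12% of all genes did. Of these 1 was higher (Itga2, with 4.01% of all genes higher) and 2 were lower (Itga3 and Itga5, with 4.1% of all genes lower). The median log2 difference was -0.012 over the 34 genes and 0.0017 over all genes, and 17 were higher and 17 lower. All 4 shIRF7 values lay above all 4 control values in 1 gene (2.58% of all genes) and below them in 1 gene (2.80% of all genes). The 24 integrin genes had differences between -2.06 and 1.23, the 10 laminin genes between -0.38 and 0.26.

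Against scramble alone 0 of 34 genes passed (0.00513% of all genes), and 5 had an unadjusted limma p under 0.05, 3 higher and 2 lower (6.14% of all genes). Against empty vector alone 0 passed (0% of all genes), and 2 had an unadjusted limma p under 0.05 (5.84% of all genes). Scramble against empty vector also gave 0 (0% of all genes), with 1 gene at an unadjusted limma p under 0.05 (1.93% of all genes). That gene was Itga2b, the platelet integrin alpha IIb, which was not above background. The comparisons with either control share the 4 shIRF7 arrays.

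**Figure D2:**
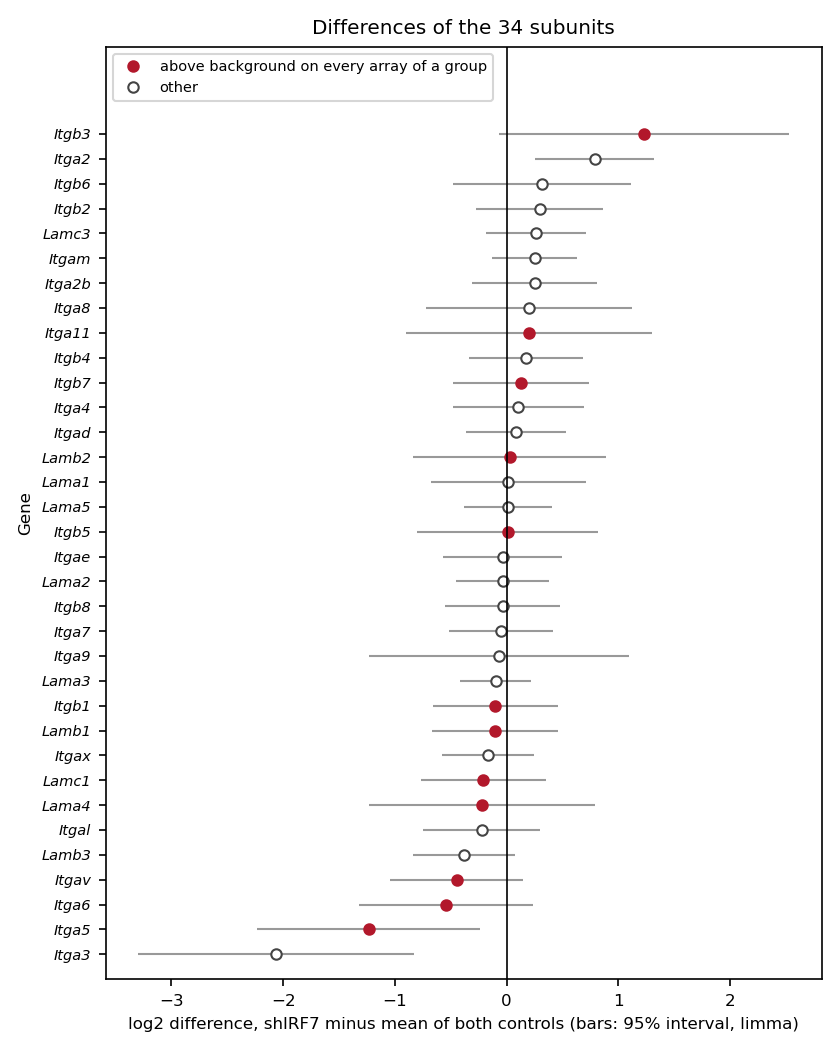
The 34 genes are ordered by the log2 difference of shIRF7 minus the mean of both controls, with 95% intervals from limma. Intervals of Itga3, Itga5 and Itga2 do not reach 0 before adjustment, and filled points mark the 12 genes above background on every array of at least 1 group.

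Among the laminin-binding alpha subunits, Itga3 was lower on all shIRF7 arrays than on all control arrays, but it was above background on no shIRF7 array and only on the replicate 1 arrays of both controls. Itga3 encodes integrin alpha 3, which pairs with beta 1 and binds laminins of epithelial and other basement membranes. It measured 6.99, 5.85, 5.29 and 5.47 in shIRF7 replicates 1 to 4, against 8.97 and 7.32 in scramble and 8.48 and 7.06 in empty vector. Replicate 1 of shIRF7 lay just below the lowest control. The means were 5.90 ± 0.77 in shIRF7 and 7.96 ± 0.92 in controls (SD, n = 4 each), which differ by -2.06 on the log2 scale (SE 0.53, 95% interval -3.30 to -0.83, limma adjusted p = 0.332). The difference was -1.74 within replicate 1, -1.34 within replicate 2, -2.25 against scramble and -1.87 against empty vector. Since most of these values were not above background, the size of the difference is uncertain and no fold is given.

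Interferon regulatory factors bind repeats of GAAA, so the 250 bases before each gene start were searched on both strands for GAAA, NN (any 2 bases) and GAAA in a row (RefSeq, GRCm38.p6). Promoters were found for 21 of the 34 genes, 24 windows in all, and 2 windows held the motif, those of Itga3 and Itga2b, against 2.98% of 32851 windows of all genes. The windows are shown for the genes with the motif, for both annotated starts of Itga3, and for comparison for Itga2 and Itga5, the other subunits with an unadjusted p under 0.05. Capitals mark the motif, which in Itga3 reads on the opposite strand and ends 91 bases before the start, and in Itga2b reads on the gene's strand. Such a match describes letters, not a bound site.
Itga3, outer start, chr11:95076715-95076964, minus strand: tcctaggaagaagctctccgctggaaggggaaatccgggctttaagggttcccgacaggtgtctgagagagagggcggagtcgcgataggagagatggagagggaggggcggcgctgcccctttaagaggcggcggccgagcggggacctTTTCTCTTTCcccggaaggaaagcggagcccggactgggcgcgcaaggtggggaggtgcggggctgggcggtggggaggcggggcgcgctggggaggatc
Itga3, inner start, chr11:95069199-95069448, minus strand: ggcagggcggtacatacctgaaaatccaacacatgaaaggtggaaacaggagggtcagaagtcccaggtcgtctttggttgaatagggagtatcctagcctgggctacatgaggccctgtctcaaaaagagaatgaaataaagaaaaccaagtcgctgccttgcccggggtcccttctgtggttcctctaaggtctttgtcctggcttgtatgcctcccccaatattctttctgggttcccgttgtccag
Itga2b, chr11:102469884-102470133, minus strand: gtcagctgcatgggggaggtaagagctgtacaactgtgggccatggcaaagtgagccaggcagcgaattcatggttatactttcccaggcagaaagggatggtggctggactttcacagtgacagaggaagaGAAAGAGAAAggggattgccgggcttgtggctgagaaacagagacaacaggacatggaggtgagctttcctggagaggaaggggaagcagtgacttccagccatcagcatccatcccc
Itga2, chr13:114932101-114932350, minus strand: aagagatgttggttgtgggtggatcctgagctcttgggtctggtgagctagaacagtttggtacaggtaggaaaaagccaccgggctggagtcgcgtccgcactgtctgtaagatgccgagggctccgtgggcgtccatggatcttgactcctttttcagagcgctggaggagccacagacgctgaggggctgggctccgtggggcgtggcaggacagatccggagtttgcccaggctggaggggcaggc
Itga5, chr15:103366792-103367041, minus strand: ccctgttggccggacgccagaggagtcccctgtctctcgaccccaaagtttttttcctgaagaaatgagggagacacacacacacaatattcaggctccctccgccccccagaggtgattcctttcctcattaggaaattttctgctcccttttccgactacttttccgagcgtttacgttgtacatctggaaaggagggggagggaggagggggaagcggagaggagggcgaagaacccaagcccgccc

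Itga6, the alpha 6 chain of further laminin receptors, measured 9.31, 8.37, 7.99 and 8.71 in shIRF7, against 8.98 and 9.22 in scramble and 8.65 and 9.69 in empty vector. Replicates 2 and 3 of shIRF7 were under every control, but replicate 1 was above 3 of the 4, so the groups overlapped. The log2 difference was -0.54 (SE 0.33, adjusted p = 0.758), and was 0.50 within replicate 1 and -1.09 within replicate 2. Itga7, the laminin receptor chain of muscle, and Itgb4, the partner of alpha 6 in epithelia, were not above background on any array.

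Subunits of the fibronectin and vitronectin receptors had differences of either sign over all arrays, and none passed. Itga5 encodes the alpha chain of the main fibronectin receptor. It measured 11.48, 9.42, 9.74 and 9.98 in shIRF7 replicates 1 to 4, against 11.56 and 11.76 in scramble and 10.87 and 11.38 in empty vector. Replicates 2 to 4 of shIRF7 were below every control, while replicate 1 lay among them. The means were 10.16 ± 0.91 in shIRF7 and 11.39 ± 0.38 in controls (SD, n = 4 each). The log2 difference was thus -1.24 (SE 0.43, or 2.35-fold lower, limma adjusted p = 0.527). It was 0.27 within replicate 1 and -2.15 within replicate 2. Without shIRF7 replicate 1 the difference was -1.68 with an adjusted p of 0.0569 in limma, the lowest of any subunit in shIRF7 against both controls under any alternative tried. Without shIRF7 replicate 2 the difference was -0.99 (limma adjusted p = 0.937).

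Itgav, the alpha chain shared by receptors for vitronectin and for latent TGF-beta, was likewise highest in replicate 1 and lowest in replicate 2 within shIRF7. It measured 11.26, 10.15, 10.18 and 10.50 in shIRF7, against 10.72 and 10.82 in scramble and 11.21 and 11.13 in empty vector. The log2 difference was -0.45 (SE 0.26, adjusted p = 0.745), and was 0.30 within replicate 1 and -0.83 within replicate 2.

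Itgb1, the beta chain that most of these alpha chains pair with, was steady in the controls and less so in shIRF7. It measured 16.25, 15.29, 15.41 and 16.10 in shIRF7, against 15.92 and 15.85 in scramble and 15.82 and 15.86 in empty vector. Its log2 difference was -0.10 (SE 0.24, 95% interval -0.66 to 0.46, adjusted p = 0.964), and was 0.38 within replicate 1 and -0.56 within replicate 2. Replicates 2 and 3 of shIRF7 were below every control and replicates 1 and 4 above them.

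Itgb3, the beta chain of the vitronectin receptor alpha v beta 3, had the highest positive difference. It measured 9.20, 9.63, 9.89 and 9.72 in shIRF7, against 8.84 and 7.05 in scramble and 9.98 and 7.63 in empty vector. All shIRF7 arrays were above background, but only the replicate 1 arrays of the controls were, and empty vector replicate 1 exceeded every shIRF7 array. The means were 9.61 ± 0.30 in shIRF7 and 8.38 ± 1.30 in controls (SD, n = 4 each), which differ by 1.23 on the log2 scale (SE 0.56, limma adjusted p = 0.639). It was -0.22 within replicate 1 and 2.29 within replicate 2, where both controls were not above background. Without empty vector replicate 2 the difference over all other arrays was 0.64, and without scramble replicate 2 it was 0.78.

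Itgb5, another beta partner of alpha v, measured 12.53, 13.33, 13.40 and 13.28 in shIRF7, against 13.11 and 12.65 in scramble and 14.10 and 12.64 in empty vector. Its log2 difference was 0.010 (SE 0.35, 95% interval -0.80 to 0.82), with -1.08 within replicate 1 and 0.69 within replicate 2. The direction over all arrays turned with cyclic loess normalization (-0.018). Itgb6 and Itgb8, the beta chains that activate latent TGF-beta with alpha v, were not above background on any array. Nor were Itga8, the alpha chain that binds nephronectin, and Itga2b.

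**Figure D3:**
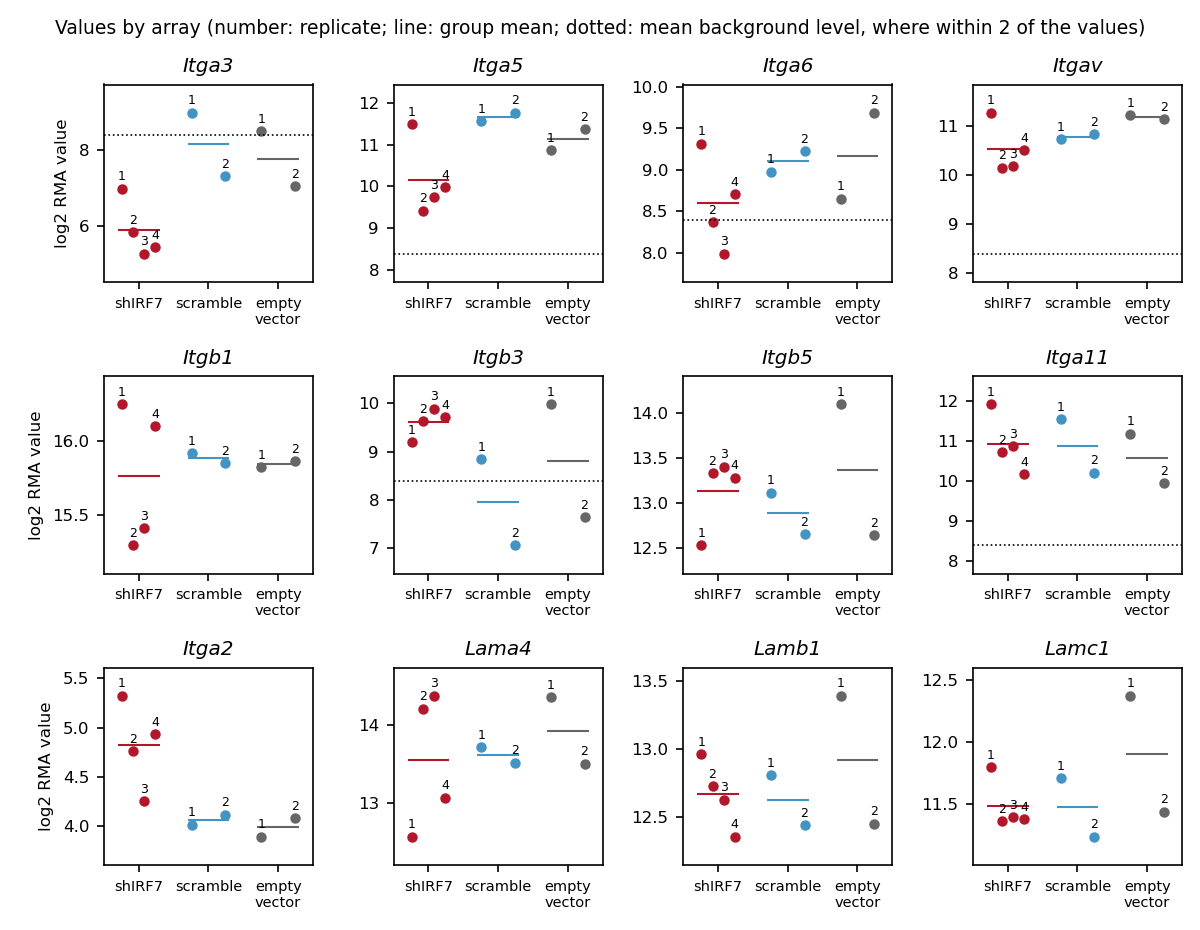
Log2 values of 12 subunits on each array, with the replicate number beside each point and a line at the group mean. Replicates 2 and 3 of shIRF7 sit under every control in Itga5, Itga6, Itgav and Itgb1, and replicate 1 of shIRF7 does not.

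The collagen receptors were represented by Itga11, which binds fibrillar collagen in fibroblasts. It measured 11.92, 10.71, 10.87 and 10.17 in shIRF7, against 11.54 and 10.21 in scramble and 11.18 and 9.95 in empty vector. The log2 difference was 0.20 (SE 0.47, 95% interval -0.90 to 1.30, adjusted p = 0.962), and was 0.56 within replicate 1 and 0.64 within replicate 2. In every group replicate 1 exceeded replicate 2. Itga2, the alpha chain of the collagen receptor of platelets and epithelia, measured 5.32, 4.77, 4.26 and 4.93 in shIRF7, against 4.02 and 4.12 in scramble and 3.90 and 4.09 in empty vector. All shIRF7 values of Itga2 were above all control values, by a log2 difference of 0.79 (SE 0.23, adjusted p = 0.415), 1.37 within replicate 1 and 0.66 within replicate 2. Itga2 was not above background on any array, so no fold is given.

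Integrins of leukocytes were below background with 1 exception, Itgb7. Itgad, Itgae, Itgal, Itgam and Itgax, the alpha chains of leukocytes, and Itgb2, the beta chain that pairs with most of them, were above background on no array. Their differences lay between -0.22 (Itgal) and 0.30 (Itgb2). The mean level of the 13 leukocyte markers was 3.66 to 3.90 on shIRF7 arrays and 3.68 to 4.05 on control arrays. Itgb7, the beta chain that lets lymphocytes home to the gut, was above background throughout. It measured 11.11, 11.57, 11.70 and 11.23 in shIRF7, against 11.68 and 10.86 in scramble and 11.66 and 10.90 in empty vector, a log2 difference of 0.13 (SE 0.26, adjusted p = 0.953). Within replicate 1 the difference was -0.56 and within replicate 2 it was 0.69. Neither of its alpha partners, Itga4 and Itgae, was above background. Itga9, the relative of Itga4 that binds tenascin, was above background on empty vector replicate 1 only, and differed by -0.071 (SE 0.50).

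Laminin chains varied by array without a difference between groups beyond that spread. Lama4, the alpha 4 chain of laminins of vessels, fat and muscle, measured 12.56, 14.21, 14.38 and 13.07 in shIRF7, against 13.72 and 13.51 in scramble and 14.35 and 13.50 in empty vector. Replicates 1 and 4 of shIRF7 were the lowest arrays of all and replicate 3 the highest. The log2 difference was -0.22 (SE 0.44, 95% interval -1.23 to 0.80, adjusted p = 0.951), and was -1.47 within replicate 1 and 0.70 within replicate 2.

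Lamb1, the beta 1 chain, measured 12.96, 12.73, 12.63 and 12.36 in shIRF7, against 12.81 and 12.44 in scramble and 13.39 and 12.45 in empty vector, a log2 difference of -0.11 (SE 0.24, adjusted p = 0.959). Lamc1, the gamma 1 chain found in most laminins, measured 11.80, 11.36, 11.39 and 11.37 in shIRF7, against 11.71 and 11.23 in scramble and 12.37 and 11.44 in empty vector, a difference of -0.21 (SE 0.24, adjusted p = 0.900). Lamb2, the beta 2 chain of neuromuscular and kidney laminins, measured 10.91, 10.73, 10.87 and 10.81 in shIRF7, against 11.14 and 10.08 in scramble and 11.81 and 10.17 in empty vector, a difference of 0.028 (SE 0.37, adjusted p = 0.991). All 4 shIRF7 values of Lamb2 lay inside the range of the controls. Within replicates 1 and 2 the differences were -0.14 and 0.28 for Lamb1, -0.24 and 0.023 for Lamc1 and -0.57 and 0.61 for Lamb2. The other 6 laminin genes, Lama1, Lama2, Lama3, Lama5, Lamb3 and Lamc3, were above background on no array, with differences between -0.38 (Lamb3) and 0.26 (Lamc3).

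Part of this variation followed the replicate number in both controls, but over all genes shIRF7 did not share that shift. Over all genes, deviations of same-numbered arrays correlated at 0.757 between the controls. Between a control and shIRF7 the correlation was -0.31 to -0.161. The subunits were mixed: 20 of 34 were lower in replicate 2 than in replicate 1 of both controls. In 8 of these 20 shIRF7 was higher in replicate 2. Over all genes the counts were 7223 and 4182. Where shIRF7 did not share the shift of the controls, the differences within a replicate number include it. Of the 10 subunits above background on all arrays, 7 were lower in replicate 2 than in replicate 1 of both controls (35.2% of the 5579 genes above background on all arrays), and 1, Itga11, had the same sign of the shIRF7 difference within both replicates (31.8% of those genes). Over all 34 subunits the sign matched in 10 (39.4% of all genes). Itga5, Itga6, Itgav and Itgb1 were higher in shIRF7 within replicate 1 and lower within replicate 2. In contrast Lama4, Lamb1, Lamb2, Lamc1, Itgb3, Itgb5 and Itgb7 were lower within replicate 1 and higher within replicate 2. These groups of genes were formed after their values were seen, and the differences within a replicate number rest on 1 shIRF7 array each.

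**Figure D4:**
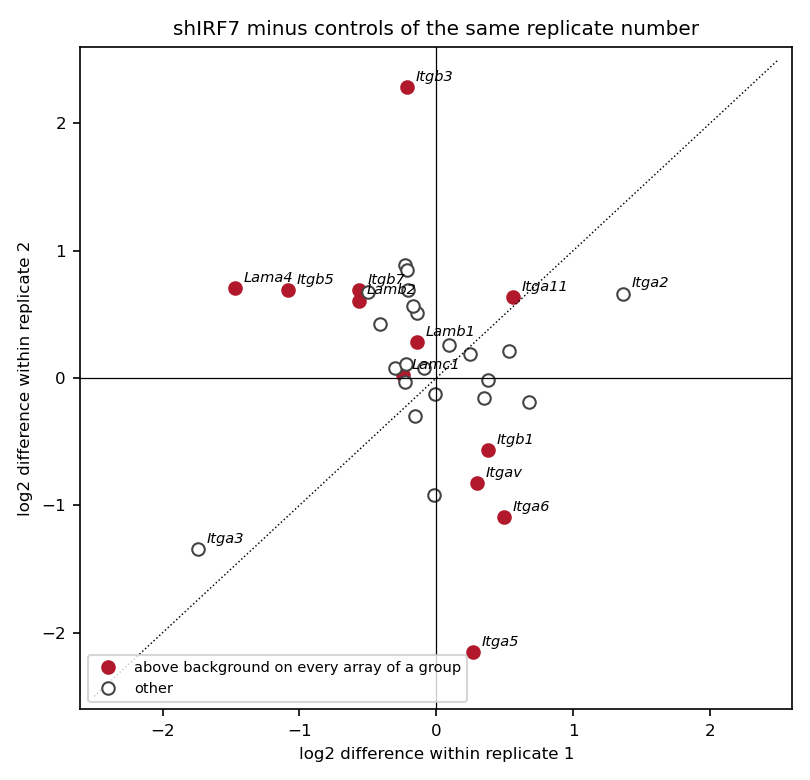
Each point is a subunit, with the log2 difference of shIRF7 minus the mean of both controls within replicate 1 on the horizontal axis and within replicate 2 on the vertical axis, and a dotted line of equality. Of the 12 filled points, genes above background on every array of a group, Itga11 alone lies in a quadrant of matching sign. Several open points do too, among them Itga3 (-1.74 and -1.34) and Itga2 (1.37 and 0.66). In all, the sign matched in 10 of the 34 subunits, against 39.4% of all genes.

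The machinery that works with these receptors gave 0 calls as well, in shIRF7 against both controls, where 0.0308% of all 19505 genes were called. That share applies to each list below, and at that share lists of such sizes would mostly hold 0 calls. Of 37 measured genes for proteins of integrin activation and focal adhesions 0 passed in either direction. Their median log2 difference was -0.15, against 0.0017 over all genes, but it was 0.18 within replicate 1 and -0.27 within replicate 2. Flna, the actin crosslinker filamin A that binds integrin beta tails, measured 15.81, 13.40, 13.64 and 13.51 in shIRF7, against 16.42 and 15.87 in scramble and 16.32 and 15.97 in empty vector. Its log2 difference was -2.06 (SE 0.53, adjusted p = 0.332), and it was smaller within replicate 1 (-0.56) than within replicate 2 (-2.52). Without shIRF7 replicate 1 Flna passed (-2.63, limma adjusted p = 0.0230), in a fit that called 28 of 19505 genes. Without shIRF7 replicate 2 Flna did not pass (-1.83, limma adjusted p = 0.792). Apbb1ip, the Rap1 effector RIAM that brings talin to integrins, measured 13.02, 12.28, 12.26 and 12.44 in shIRF7, against 13.63 and 13.58 in scramble and 13.26 and 13.27 in empty vector, a difference of -0.94 (SE 0.20, adjusted p = 0.227). Neither gene's groups overlapped, with shIRF7 lower on all arrays, which held for 2 of the 37 genes and for 2.80% of all genes. Both genes were named for the size of their differences, so a lack of overlap is likelier in them. The differences of Apbb1ip within replicates 1 and 2 were -0.42 and -1.15.

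Of 29 measured genes for integrin ligands other than laminins 0 passed, with a median difference of -0.0048. Npnt, the alpha 8 beta 1 ligand nephronectin, measured 13.32, 9.51, 10.42 and 11.66 in shIRF7, against 14.31 and 13.84 in scramble and 12.57 and 13.61 in empty vector, a difference of -2.35 (SE 0.77, adjusted p = 0.488). Ccn1, a matrix protein that binds several integrins, differed by -1.92 (SE 1.01, adjusted p = 0.704). Within replicate 1 the differences were -0.12 for Npnt and 0.35 for Ccn1, and within replicate 2 they were -4.21 and -3.52.

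Basement membrane partners of laminin gave 0 calls among 22 genes, with a median of -0.25. Only 6 of the 22 were above background on every array of a group, and 4 on all arrays. The median thus rests mostly on values not above background. Nid2, a nidogen that links laminin to collagen IV, differed by 1.09 (SE 0.66, adjusted p = 0.751), and Hspg2, the heparan sulfate proteoglycan perlecan, by -1.04 (SE 0.76, adjusted p = 0.810). Within replicates 1 and 2 Nid2 differed by -0.94 and 2.64 and Hspg2 by -0.86 and -0.14. Leaving out 1 array gave 0.36 to 1.82 for Nid2 and -1.75 to -0.32 for Hspg2, in both cases with the extremes set by the empty vector arrays. Laminin receptors other than integrins also had 0 calls, among 18 genes with a median of 0.17. Sdc4, the syndecan that acts with alpha 5 beta 1 on fibronectin, measured 12.01, 10.69, 10.56 and 10.64 in shIRF7, against 12.52 and 12.82 in scramble and 12.02 and 12.32 in empty vector. Its difference was -1.44 (SE 0.34, adjusted p = 0.285), and was -0.26 within replicate 1 and -1.88 within replicate 2. Sdc4 passed without shIRF7 replicate 1 (-1.79, limma adjusted p = 0.0298), where 28 of 19505 genes were called. It did not pass without shIRF7 replicate 2 (-1.35, limma adjusted p = 0.734). Dtna, a dystrophin-associated protein, differed by -1.61 (SE 0.70, adjusted p = 0.619), and by -1.12 within replicate 1 and -2.35 within replicate 2.

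Genes of latent TGF-beta and its activation had 0 calls among 11, with a median of -0.19. That median was 0.015 within replicate 1 and -0.31 within replicate 2. Lrrc32, which holds latent TGF-beta at the cell surface for alpha v integrins to act on, differed by -1.29 (SE 0.34, adjusted p = 0.332), -0.20 within replicate 1 and -2.12 within replicate 2. Plaur, the urokinase receptor that also binds integrins, differed by -0.998 (SE 1.19, adjusted p = 0.904), yet by 2.84 within replicate 1 and -4.22 within replicate 2, and by -1.87 to -0.25 when 1 array was left out. Tetraspanins and other integrin partners, a list that also holds Plaur, had 0 calls among 16 and a median of -0.28. Mdfic differed by -0.87 (SE 0.26, adjusted p = 0.440), -1.42 within replicate 1 and -0.33 within replicate 2.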

How the data were processed

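Total RNA was labelled with biotin and measured on 8 mouse Affymetrix arrays. The authors deposited log2 values, 1 for each probe set on each array, which per the submitters' processing notes came from RMA (Affymetrix Expression Console 1.4.1.46). That the scale is log2 follows from the values, which span 1.66 to 18.9. For the genome build, the sources used here give none. Of 28846 probe sets 19572 had 1 gene symbol, and the probe set with the highest mean was kept per gene, which left 19505 genes. Groups came from the titles.

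A mean per group was fitted over all 8 arrays with limma 3.58.1 in R 4.3.3 (lmFit, eBayes; 5 residual and 2.68 prior degrees of freedom), with Benjamini-Hochberg adjustment over all genes and a threshold of 0.05. SE and intervals are limma's. Precision is limited by the number of arrays. The fit was tested on simulated data. A bound on a fold sets each value of the dim group at no less than the 95th percentile of the negative controls.

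Members, lists and alternatives were chosen with earlier results of these data known. Named in full were members called in any comparison, without overlap of groups, among the 8 with the highest mean, or with the 4 largest differences in each direction among those above background; other list genes were the 2 largest per list. Other values named were chosen after they were seen.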

Additional observations from a re-analysis of the deposited data

Results flagged for a closer look

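Among 46 genes tested in the 4 shIRF7 arrays, 7 had an array set apart from the other 3 by a gap above the 95% critical value of Dixon's test, where chance flags about 1 in 20. For 5 of them that array was shIRF7 replicate 1, and 4 of these were above background. There Itgb5 measured 12.5 against 13.3 to 13.4 on the other shIRF7 arrays, Lamc1 11.8 against 11.4 on each of the others, Flna 15.8 against 13.4 to 13.6, and Sdc4 12.0 against 10.6 to 10.7. The other 3 genes were not above background: Itgax measured 2.73 in shIRF7 replicate 1, Itgam 3.53 in replicate 3 and Lama1 4.00 in replicate 4.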

How the results depend on the processing

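No integrin or laminin subunit was called in any of the 4 comparisons under any alternative that could give a value: 0 in every fit, the 8 fits without 1 array included. The number of all genes called in shIRF7 against both controls was 6, and 3 with only genes above background on average, 3 with trend and robust fitting, 28 with both controls as 1 group, 0 with shIRF7 replicates 2 and 3 averaged, and 0 to 28 without 1 array. The averaged arrays, shIRF7 replicates 2 and 3, were the closest pair, with an SD of differences over all genes of 0.322. It was 0.495 to 0.706 between other shIRF7 arrays, and 0.325 between replicate 2 of scramble and of empty vector. The labels do not say whether shIRF7 replicates 2 and 3 are independent, so their similar values may not count as separate support. The median difference of the subunits was -0.012, and -0.12 to 0.14 without 1 array. Irf7 passed with both controls as 1 group (-3.79, adjusted p = 0.0299) and without shIRF7 replicate 1 (-3.31, adjusted p = 0.0254). Its difference was -4.10 to -3.31 without 1 array, with an adjusted p of up to 0.316 (without shIRF7 replicate 2). Directions turned in genes with small differences. Itgb5 was -0.018 with cyclic loess, -0.20 with the replicate block and -0.067 with shIRF7 replicates 2 and 3 averaged; Lamb1 was 0.071 with the block, and Itgb1 0.037 with the averaged arrays. Without 1 array Itgb5 ranged from -0.36 to 0.38, Itga11 from -0.14 to 0.53, Itgb1 from -0.26 to 0.057, Itgb7 from -0.078 to 0.33, Lama4 from -0.49 to 0.11, Lamb1 from -0.34 to 0.13, Lamb2 from -0.38 to 0.44 and Lamc1 from -0.44 to 0.026. Itga3 stayed between -2.47 and -1.65, Itga2 between 0.62 and 0.98, and Itgb3 between 0.64 and 1.82. Itga5 was between -1.68 and -0.99, Itga6 between -0.80 and -0.28, and Itgav between -0.69 and -0.32. The cause of these shifts was not tested. Itga3, Itga2 and Irf7 had no value with only genes above background on average. With the replicate number as a block, 0 genes were called in limma. Only shIRF7 has replicates 3 and 4, so that fit rested on the differences within replicates 1 and 2. It had 2 residual degrees of freedom, so its 0 calls say little. Same-numbered arrays did not all deviate together: the correlation of deviations was 0.757 between the controls but -0.31 to -0.161 between a control and shIRF7, so the numbers were not taken to pair the arrays. With the 90th percentile of the negative controls as background, chosen after seeing the data, 11 subunits passed it on all arrays and 19 on none.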
